A study of Homo sapiens with 4 samples.

Results

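The mRNA levels of 51 genes of ribosome biogenesis and RNA polymerase I were compared between VHL-null 786-O-Ctrl and VHL-restored 786-O-VHL cells. The genes were taken by symbol from the deposited count table, where 50 of them were found among 12912 genes, each under a single identifier. FBL, which encodes fibrillarin, was not analysed here. Of the 50 genes, 49 had enough counts to be tested, among 12335 genes tested in all, and RRN3 did not. 786-O is a human clear cell renal carcinoma line without functional VHL, the substrate receptor of a ubiquitin ligase that marks HIF for degradation. 786-O-VHL received a retroviral pBabe-puro vector for HA-tagged VHL and 786-O-Ctrl did not receive VHL. The labels name the 786-OTR versions of both sublines, which share a retroviral triple reporter of thymidine kinase, GFP and luciferase. Each group was 1 subline with 2 libraries, so a difference between sublines that does not come from VHL cannot be told apart from one that does, and the p-values measure the spread between these libraries only.

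Ribosomes are made in the nucleolus, where RNA polymerase I transcribes the ribosomal RNA (rRNA) precursor from tandem gene copies. The upstream binding factor UBTF and the selectivity complex SL1 mark the rDNA promoter, and RRN3 brings the polymerase to it. Small nucleolar ribonucleoproteins (snoRNPs) then modify the transcript, box C/D particles by ribose methylation and box H/ACA particles by pseudouridylation, while assembly factors, helicases and nucleases fold and cut it into the precursors of the small and the large ribosomal subunit. Many of the genes are known targets of MYC, and their output usually follows cell growth and division.

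The 786-O-Ctrl libraries, called the deeper and the shallower one here, held 22141263 and 15714166 counts, against 2807779 in 786-O-VHL replicate 1 and 16114120 in 786-O-VHL replicate 2. Levels are given as CPM, for which each library's total was multiplied by its TMM factor (edgeR's trimmed-mean scaling) before its counts were put on the common scale, and in the order of the libraries just named. A positive log2 fold change means a higher level in 786-O-VHL. Each has a standard error (SE), and genes were called at an FDR (Benjamini-Hochberg adjusted p of edgeR's quasi-likelihood test over all genes tested) below 0.05. VHL itself was at 42.9, 43.9, 178 and 163 CPM, a log2 fold change of 1.96 (SE 0.0706, edgeR FDR 2.86e-19), as the labels say. Of 12 renal markers, 11 were in the table and LRP2 was not, with PAX8 between 137 and 277 CPM. Not all of them were high, as LHX1 lay between 2.71 and 4.84, CUBN between 0.930 and 1.70 and CA9 between 0.475 and 1.20 CPM. Of 11 markers of blood, endothelium and fibroblasts, 3 were in the table, at 6.05 to 8.48 CPM in sum.

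The genes fell more often than they rose in 786-O-VHL. Of the 49 tested, 29 were lower and 7 were higher, against 31.9% of all tested genes that were lower and 32.6% that were higher, so the lower genes took 59.2% of these genes and the higher ones 14.3%. The counts of classes and lists given below are to be read beside the same 31.9% and 32.6%. Their median log2 fold change was -0.23 and that of all genes 0.02. Most changes were small. Only 4 of the lower genes changed by more than 1.5-fold (16.3% of all tested genes did), namely MRTO4, BOP1, UBTF and NCL, and of the higher genes TAF1D did (18.5%). The log2 fold changes ran from -1.16 for MRTO4 to 0.63 for TAF1D, and the middle 50% of all tested genes spanned -0.40 to 0.46. Both 786-O-VHL libraries were below both 786-O-Ctrl libraries for 31 genes (39.2% of all tested genes) and above for 8 (40.8%), and the libraries overlapped for 10.

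With library totals alone, without TMM factors, 17 genes were called lower and 14 higher, and the medians moved to -0.10 for these genes and 0.15 for all genes, so that their distance stayed at -0.25. The shares of all tested genes called in this way were not counted, and the 31.9% and 32.6% above are those with TMM factors. With an offset for GC content and exon length the distance was -0.16. The count of higher genes fell to 4 without the shallower 786-O-Ctrl library and to 2 without 786-O-VHL replicate 2.

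**Figure D1:**
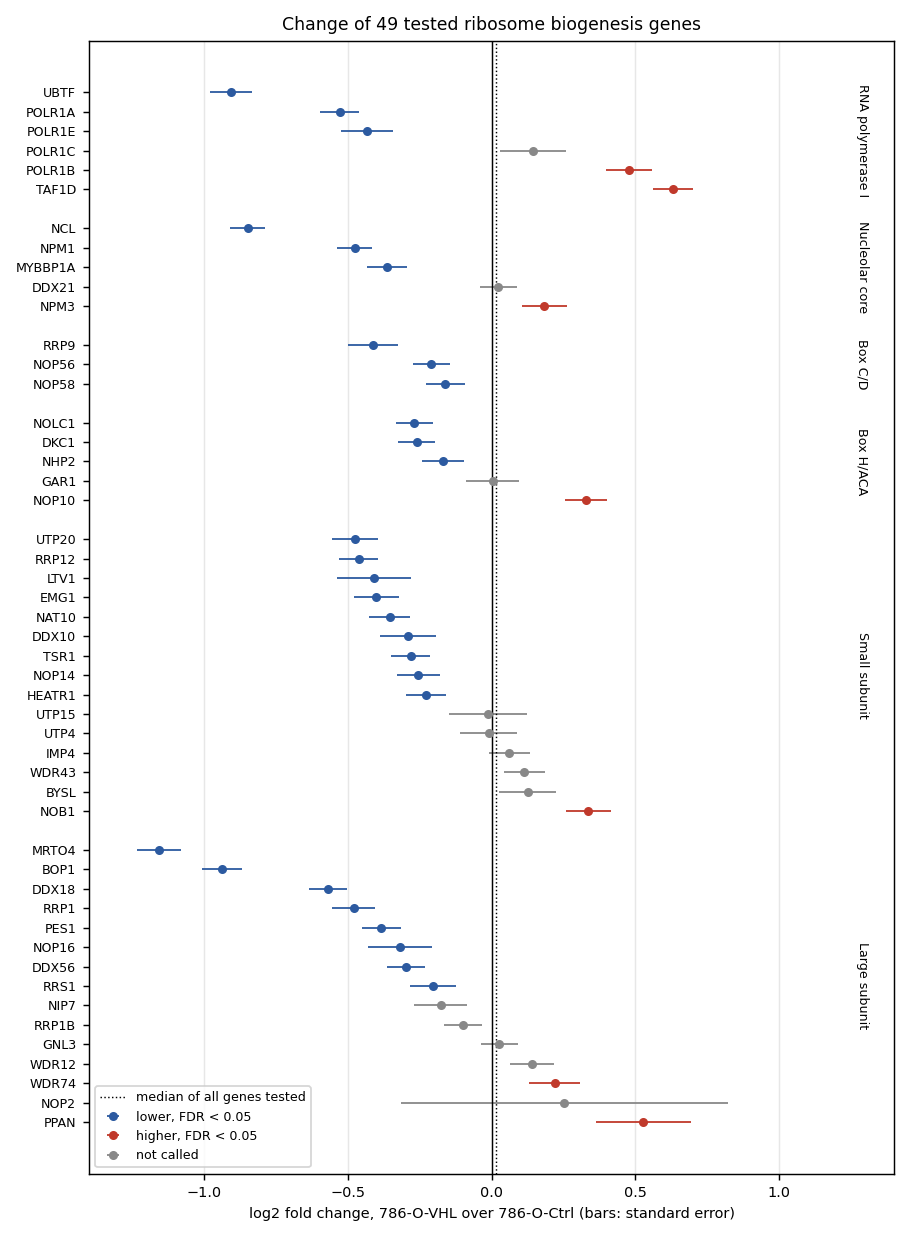
Log2 fold change of 786-O-VHL over 786-O-Ctrl on the horizontal axis for the 49 tested genes, grouped by role, with the standard error as bars and the median of all tested genes (0.02) as a dotted line. The 29 lower genes lie left of the line in every role, and the 7 higher ones are spread over 5 of the 6 roles, none of them a box C/D gene.

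Summed over the 50 genes, the level was 6631, 6598, 5071 and 5302 CPM, means of 6614 ± 23.3 and 5187 ± 164 (SD, n = 2 each). The sum was thus 21.6% lower in 786-O-VHL, with no overlap of the libraries (two-sided exact permutation test, p = 0.333, the smallest p that 2 against 2 libraries allow). NCL and NPM1 held 31.5% of the sum in 786-O-Ctrl. Without this pair the sum went from 4530 ± 22.9 to 3861 ± 166 CPM, 14.8% lower. In bulk libraries, less RNA of these genes per cell and fewer cells that express them cannot be told apart.

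Promoters are shown for genes that moved in opposite directions, UTP20 of the small subunit processome (lower) and NOP10 of the box H/ACA particle (higher), because both carry the E-box CACGTG, the letters that MYC with MAX is known to bind. Each sequence holds the 250 bases before the RefSeq start, 5′ to 3′ on the strand of the gene, with every CACGTG in capitals (GRCh38.p14; UTP20 at chr12:101279855-101280104 on the plus strand and NOP10 at chr15:34343137-34343386 on the minus strand).
UTP20: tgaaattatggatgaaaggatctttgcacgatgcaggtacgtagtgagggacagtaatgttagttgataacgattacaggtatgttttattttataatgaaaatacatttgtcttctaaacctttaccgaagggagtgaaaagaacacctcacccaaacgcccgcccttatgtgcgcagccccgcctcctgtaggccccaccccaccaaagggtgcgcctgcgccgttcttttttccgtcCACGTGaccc
NOP10: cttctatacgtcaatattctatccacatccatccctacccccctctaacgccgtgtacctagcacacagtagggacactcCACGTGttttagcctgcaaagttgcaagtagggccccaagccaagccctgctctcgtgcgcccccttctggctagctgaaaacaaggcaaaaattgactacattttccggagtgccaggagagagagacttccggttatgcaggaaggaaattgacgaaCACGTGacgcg
The E-box of UTP20 begins at -10 from the start, and NOP10 has a copy at -11 and another at -170.

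The same letters lay near the start of 7 other genes that were lower in 786-O-VHL, including MRTO4, which fell the most. For these, 30 bases around the E-box are printed in the same way. The windows are, in order, chr1:19251807-19251836 (plus strand), chr11:34105602-34105631 (plus strand), chr22:30591880-30591909 (minus strand), chr3:51941892-51941921 (minus strand), chr4:2963374-2963403 (minus strand), chr6:143843354-143843383 (plus strand) and chr17:4555340-4555369 (minus strand).
MRTO4: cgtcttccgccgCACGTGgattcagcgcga
NAT10: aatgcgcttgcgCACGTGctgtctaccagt
PES1: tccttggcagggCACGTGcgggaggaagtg
RRP9: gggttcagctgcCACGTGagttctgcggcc
NOP14: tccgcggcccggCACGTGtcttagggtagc
LTV1: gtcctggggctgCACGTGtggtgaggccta
MYBBP1A: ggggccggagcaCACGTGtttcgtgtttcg
Counted from the start base as 1, the E-box began at 15 in MRTO4, 14 in PES1, 16 in NOP14, 29 in LTV1 and 28 in MYBBP1A, and at -15 in NAT10 and -5 in RRP9, before the start.

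Of the 50 genes, 42 had at least 1 promoter in the RefSeq table, 52 promoters in all, each from 250 bases before to 50 bases after a start. CACGTG, which reads the same on both strands, was in 17 of them (32.7%), in 9.11% of the 14414 promoters of tested genes and in 7.26% of all 35114 promoters. Of its 19 copies, 17 (89.5%) lay within 50 bases of the start, compared with 38.0% of the 1478 copies in promoters of tested genes. Genes with and without the E-box moved in both directions. Of the 17 genes that had it, 8 were lower, 1 was higher (NOP10) and 8 were not called, with a median log2 fold change of -0.01, and of the 25 without it 14 were lower and 6 higher, with a median of -0.22. CCGGAA, the core of ETS factor sites, was on either strand in 26 (50%) of the 52 promoters and in 26.2% of those of tested genes. Of the 23 genes with it 8 were lower and 6 higher, with a median log2 fold change of 0.01, and of the 19 without it 14 were lower and 1 higher, with a median of -0.35. That contrast was seen in the data and was not tested. ACGTG, the core of the hypoxia response element bound by HIF, was in 23 of the 52 promoters (44.2%) and in 24.9% of those of tested genes. It is also part of the E-box, so the 17 promoters with CACGTG are among the 23. These shares therefore do not count HIF core sites apart from E-boxes. The letters are a description of these windows and no binding was measured.

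In the RNA polymerase I machinery, 3 genes fell, 2 rose, POLR1C was not called and RRN3 was not tested. Of the 6 tested, 50% were thus lower and 33.3% higher, the latter near the 32.6% of all tested genes. UBTF, the factor that holds rDNA in an active state, had 3494, 2445, 287 and 1411 counts, or 166, 162, 97.4 and 83.8 CPM. Both 786-O-VHL libraries were far below both 786-O-Ctrl libraries, 1.87-fold on average (log2 fold change -0.91, SE 0.0715, edgeR FDR 7.60e-12; chr17:42282401-42298994, minus strand, GRCh37). TAF1D, a subunit of SL1, moved the other way, from 1305 and 998 to 284 and 1687 counts, or from 62.0 and 66.3 to 96.3 and 100 CPM. It rose 1.55-fold with the libraries apart (log2 fold change 0.63, SE 0.0708, edgeR FDR 9.40e-09; chr11:93463114-93517557, minus strand), and it was the gene of the 49 that rose the most. TAF1D contains 8 snoRNA genes, and whether their reads were counted on it was not tested.

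The largest subunits of the polymerase, which form its active centre together, moved in opposite directions. POLR1A, the catalytic subunit, had 2542, 1844, 247 and 1423 counts, or 121, 123, 83.8 and 84.5 CPM (log2 fold change -0.53, SE 0.0678, edgeR FDR 1.05e-07; chr2:86247339-86333278, minus strand). POLR1B had 939, 678, 175 and 1068 counts, or 44.6, 45.1, 59.4 and 63.4 CPM (log2 fold change 0.48, SE 0.0797, edgeR FDR 7.26e-06; chr2:113299492-113337395, plus strand). The groups were apart for both genes, and within a library the counts of POLR1A over those of POLR1B went from 2.71 and 2.72 to 1.41 and 1.33, a ratio that does not depend on the scaling of the libraries. POLR1E, a subunit particular to polymerase I, was at 50.3, 47.2, 39.7 and 35.2 CPM and fell by 0.43 on the log2 scale. POLR1C, which polymerase III also uses, was at 23.6, 23.3, 22.7 and 26.9 CPM with overlapping libraries (log2 fold change 0.14, edgeR FDR 0.278).

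RRN3 had 18, 1, 1 and 10 counts (chr16:15153890-15188168, minus strand), or 0.855, 0.0665, 0.339 and 0.594 CPM. The exact 95% Poisson intervals of the 786-O-Ctrl libraries, 0.507 to 1.35 and 0.00168 to 0.370 CPM, did not meet, and that of 786-O-VHL replicate 1 reached from 0.00859 to 1.89 CPM. No difference between the groups could be read from values that differ so much within 1 group and rest on so few counts. These intervals cover counting error only. Of 14 other subunits and factors of this machinery that were tested, 6 fell and the other 8 were not called. TCOF1, whose product treacle works with UBTF at rDNA, fell from 270 and 254 to 100 and 121 CPM (log2 fold change -1.20, edgeR FDR 3.43e-14), and POLR2L (-0.70) and POLR1G (-0.57) fell as well. Of the other SL1 subunits, TBP, which the other polymerases use too, fell by 0.29 on the log2 scale (edgeR FDR 0.0407), whereas TAF1C at -0.14, TAF1B at -0.07 and TAF1A at 0.10 were not called.

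**Figure D2:**
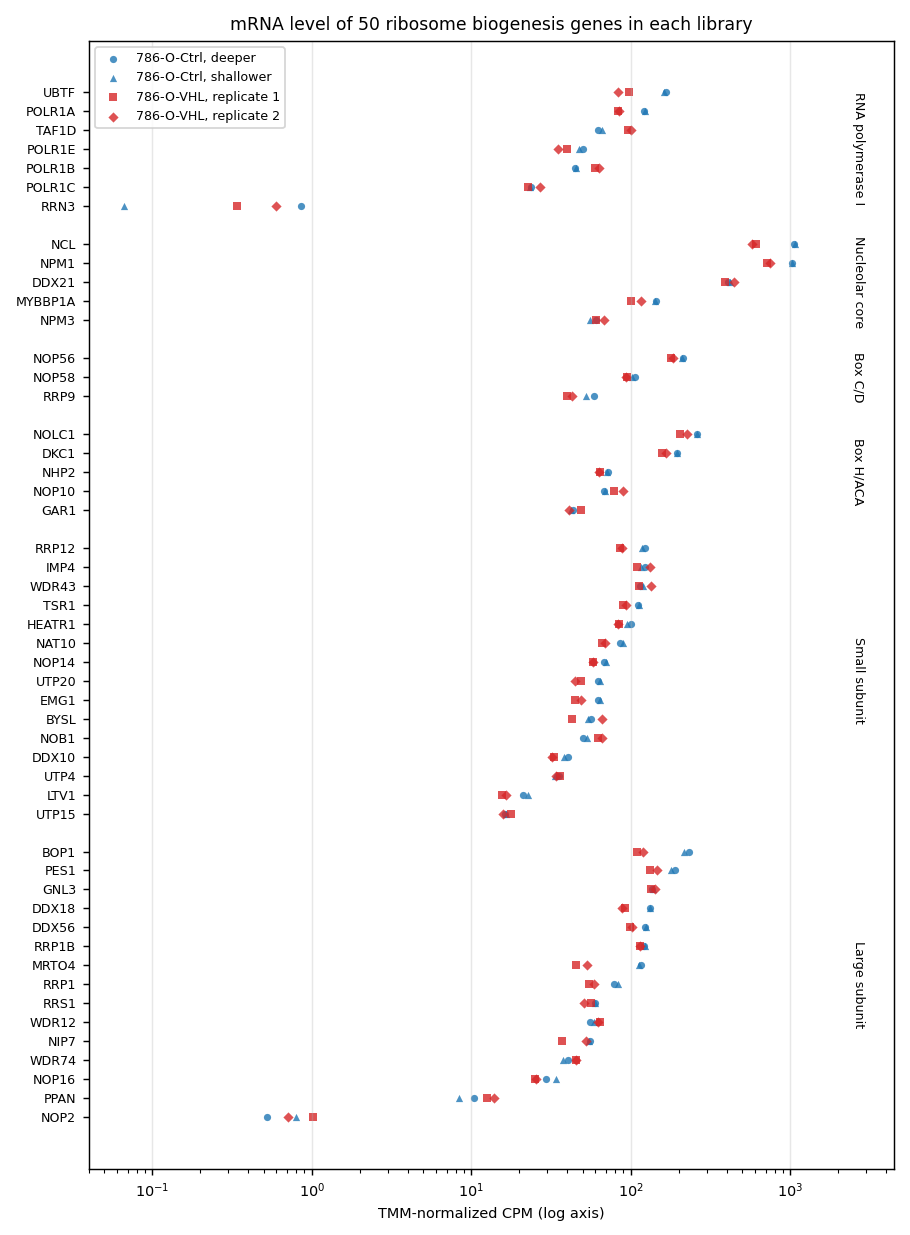
TMM-normalized CPM on a log axis for each of the 50 genes in the 4 libraries, with blue marks for 786-O-Ctrl and red for 786-O-VHL. For 31 of the tested genes both red marks lie left of both blue ones, most visibly for MRTO4, BOP1, UBTF and NCL, and RRN3 and NOP2 stand apart near or below 1 CPM.

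Among the abundant nucleolar proteins, 3 genes fell, 1 rose and DDX21 was not called. NCL encodes nucleolin, an RNA-binding protein of the dense nucleolar compartment, and had 22345, 16013, 1801 and 9664 counts, or 1061, 1064, 611 and 574 CPM. The groups were far apart, at 1063 ± 2.20 against 592 ± 26.2 CPM (SD, n = 2 each), 1.80-fold lower in 786-O-VHL (log2 fold change -0.85, SE 0.0607, edgeR FDR 9.72e-13; chr2:232318242-232348352, minus strand). NPM1, nucleophosmin, a histone chaperone of the granular compartment, had 21562, 15350, 2112 and 12626 counts, or 1024, 1020, 717 and 750 CPM (log2 fold change -0.48, SE 0.0595, edgeR FDR 6.40e-08; chr5:170814120-170838814, plus strand). Its libraries did not overlap either, and its fold change next to that of NCL was not tested for a difference.

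NPM3, a smaller protein of the nucleophosmin family, had 1271, 841, 178 and 1148 counts, or 60.4, 55.9, 60.4 and 68.2 CPM, and passed the test narrowly in the other direction (log2 fold change 0.18, SE 0.0782, edgeR FDR 0.0426). The deeper 786-O-Ctrl library and 786-O-VHL replicate 1 were equal to the digits shown, and the call was lost with DESeq2 (FDR 0.36) and without any of 3 libraries in turn. MYBBP1A, a nucleolar partner of MYB and of the polymerase, was at 143, 142, 99.7 and 116 CPM (log2 fold change -0.36, edgeR FDR 4.31e-05). DDX21, a helicase that links polymerase I transcription with processing, was at 408, 419, 391 and 442 CPM, with 786-O-VHL on both sides of 786-O-Ctrl (log2 fold change 0.02, edgeR FDR 0.769).

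All 3 tested box C/D proteins fell, though by little. NOP56 and NOP58, the paired scaffold of the particle, fell by 0.21 and 0.16 on the log2 scale (edgeR FDR 0.00521 and 0.0408). Both calls were lost with library totals alone, at -0.08 and -0.03, and that for NOP58 also with DESeq2 (-0.17, FDR 0.17). NOP58 had 2248, 1536, 279 and 1567 counts, or 107, 102, 94.7 and 93.1 CPM, just apart between the groups. The counts of NOP56 over those of NOP58 stayed between 1.89 and 2.06 in every library, and the groups were barely apart. RRP9, a protein of the snoRNP that belongs to the small subunit processome, had 1241, 788, 117 and 719 counts, or 58.9, 52.4, 39.7 and 42.7 CPM, and fell the most of the 3 (log2 fold change -0.41, SE 0.0874, edgeR FDR 0.000169).

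The box H/ACA proteins did not move together. DKC1, dyskerin, the pseudouridine synthase of the particle, had 4130, 2936, 460 and 2815 counts, or 196, 195, 156 and 167 CPM (log2 fold change -0.26, SE 0.0646, edgeR FDR 0.000896; chrX:153991017-154005964, plus strand). NOP10, the small protein that binds dyskerin, had 1424, 1042, 230 and 1498 counts, or 67.6, 69.2, 78.0 and 89.0 CPM (log2 fold change 0.33, SE 0.0730, edgeR FDR 0.00028; chr15:34631360-34635381, minus strand). Neither gene overlapped between the groups, and DKC1 over NOP10 counts went from 2.90 and 2.82 to 2 and 1.88. NHP2, the third core protein, fell by 0.17 on the log2 scale (edgeR FDR 0.0428), and GAR1, the fourth, had a log2 fold change of 0.00 (edgeR FDR 0.970). NOLC1, the chaperone that carries snoRNPs through the nucleolus, had 5473, 3921, 598 and 3770 counts, or 260, 261, 203 and 224 CPM (log2 fold change -0.27, SE 0.0648, edgeR FDR 0.000681). The call for NOP10 was lost without 786-O-VHL replicate 2 (0.18, FDR 0.16), and that for DKC1 with library totals alone (-0.13).

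Of 12 other tested genes of snoRNP assembly and rRNA modification, 6 fell and 2 rose. The helicases RUVBL1 (-0.66) and RUVBL2 (-0.42), which load the core proteins, fell along with the dyskerin chaperone SHQ1 (-0.59). ZNHIT6, a box C/D assembly factor, rose by 0.89 and the rRNA methyltransferase subunit METTL5 by 0.58 on the log2 scale.

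Of the 15 genes of small subunit assembly, 9 fell, 1 rose and 5 were not called. UTP20, a long scaffold protein whose promoter is printed above, had 1319, 970, 144 and 753 counts, or 62.6, 64.5, 48.9 and 44.7 CPM, and fell the most of them (log2 fold change -0.47, SE 0.0807, edgeR FDR 9.33e-06; chr12:101673883-101780396, plus strand). RRP12, needed for export of the precursors, fell by 0.46 and was at 123 and 118 against 86.2 and 88.2 CPM. Both genes were apart between the groups, and both calls held in all 12 alternatives that were run for each gene. The RNA-modifying enzymes of the small subunit, the methyltransferase EMG1 (-0.40) and the acetyltransferase NAT10 (-0.35), fell as well.

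NOB1, the endonuclease that makes the last cut in small subunit rRNA, was the gene of this class that rose. It had 1057, 799, 185 and 1110 counts, or 50.2, 53.1, 62.8 and 65.9 CPM (log2 fold change 0.34, SE 0.0775, edgeR FDR 0.000422; chr16:69775774-69788829, minus strand). LTV1, a factor of the late cytoplasmic precursors on which NOB1 acts, fell by 0.41, at 21.1, 22.6, 15.6 and 16.6 CPM. NOB1 over LTV1 counts thereby went from 2.38 and 2.35 to 4.02 and 3.96, apart between the groups. TSR1 (-0.28), a GTPase-like factor of the same late precursors, fell too. The NOB1 call was lost without 786-O-VHL replicate 2 (0.28, FDR 0.059).

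The remaining genes of the small subunit processome fell less or were not called. HEATR1 (-0.23), a subunit of the complex that acts on rRNA as it is transcribed, NOP14 (-0.25) and the helicase DDX10 (-0.29) were lower. UTP4 (-0.01), UTP15 (-0.01) and WDR43 (0.11), which belong to the same early complex as HEATR1, were not called, and neither was IMP4 (0.06). BYSL, a late assembly factor, was at 56.3, 53.8, 43.1 and 66.0 CPM, so that its 786-O-VHL replicates lay on either side of 786-O-Ctrl. Their exact 95% Poisson intervals, 35.9 to 51.3 and 62.2 to 70.0 CPM, did not meet, and the log2 fold change of 0.13 became 0.26 without replicate 1 and -0.36 without replicate 2, both past the threshold (edgeR FDR 0.0026 and 0.0256).

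Of 41 other tested genes of the small subunit pathway, 18 fell and 5 rose. UTP11 (-0.85), the GTPase BMS1 (-0.84) and RRP36 (-0.71) fell the most, and RCL1 (0.58), UTP3 (0.35) and NGDN (0.31) were higher, the last with libraries that overlapped, at 21.1, 23.6, 22.1 and 29.3 CPM. The median over the 41 was -0.15.

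The large subunit class, also 15 genes, held MRTO4 and BOP1, which fell the most of the 49, with 8 genes lower, 2 higher and 5 not called. MRTO4, a placeholder on the precursor until the ribosomal stalk protein takes its site, had 2448, 1689, 133 and 897 counts, or 116, 112, 45.1 and 53.3 CPM. The level fell 2.23-fold, far beyond the spread of either group, 114 ± 2.83 and 49.2 ± 5.76 CPM (SD, n = 2 each; log2 fold change -1.16, SE 0.0766, edgeR FDR 1.84e-13; chr1:19578299-19586622, plus strand). DDX18 (-0.57) and DDX56 (-0.30), helicases of this pathway, fell too, as did RRP1 (-0.48), NOP16 (-0.32) and RRS1 (-0.20), which helps to bring in the smallest rRNA. RRP1B, the paralog of RRP1, was at -0.10 (edgeR FDR 0.190), and reads that fit both paralogs could be split by the counting.

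BOP1, PES1 and WDR12 form the PeBoW complex, which is needed to cut the spacer before large subunit rRNA, and their mRNAs did not change alike. BOP1 was at 231, 215, 110 and 120 CPM (log2 fold change -0.94, SE 0.0687, edgeR FDR 1.60e-12) and PES1 at 188, 179, 132 and 145 CPM (-0.38, SE 0.0669, edgeR FDR 1.35e-05). WDR12 was at 55.8, 58.8, 64.1 and 62.6 CPM, higher in both 786-O-VHL libraries, but did not pass the test (0.14, SE 0.0764, edgeR FDR 0.107). Within a library, BOP1 over WDR12 counts fell from 4.15 and 3.66 to 1.71 and 1.91, and BOP1 over PES1 counts from 1.23 and 1.20 to 0.833 and 0.824. These pairs, and the other ratios given, were chosen after the values were seen, and no test was run on them.

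**Figure D3:**
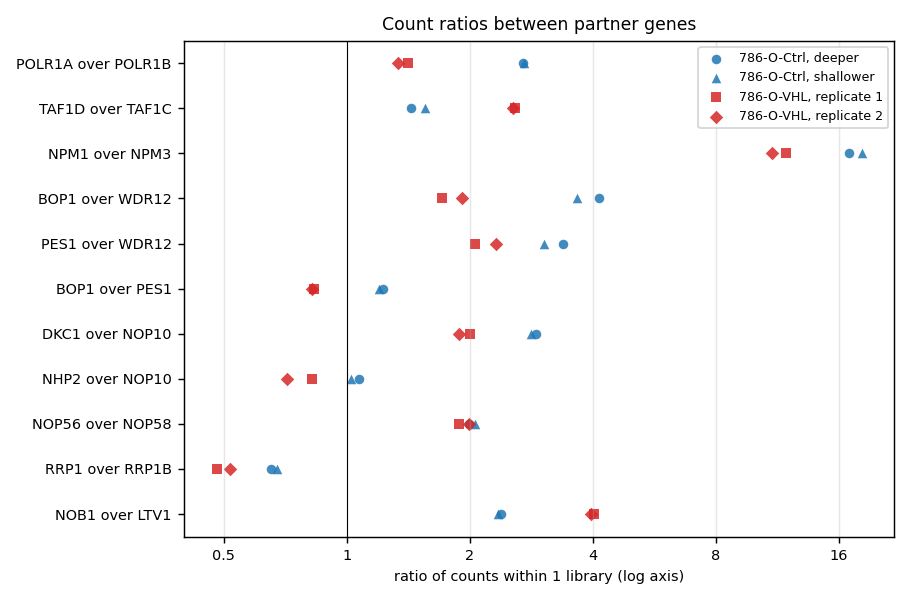
Counts of a gene over those of a partner gene within each library, on a log axis, for 11 pairs, with blue marks for 786-O-Ctrl and red for 786-O-VHL. POLR1A over POLR1B is near 2.71 in both 786-O-Ctrl libraries and at 1.41 and 1.33 in 786-O-VHL. The marks of NOP56 over NOP58 all but meet between the groups.

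WDR74 and PPAN were the genes of large subunit assembly that rose. WDR74, a cofactor of the remodelling of early precursors, had 849, 565, 134 and 765 counts, or 40.3, 37.5, 45.5 and 45.4 CPM (log2 fold change 0.22, SE 0.0893, edgeR FDR 0.0336). PPAN had 218, 126, 37 and 235 counts, or 10.3, 8.37, 12.6 and 14.0 CPM (log2 fold change 0.53, SE 0.166, edgeR FDR 0.00682; chr19:10217038-10222688, plus strand). Both were apart between the groups, but PPAN overlaps the readthrough gene PPAN-P2RY11 on the same strand, which makes its counts uncertain, and both calls were lost with DESeq2, at log2 fold changes of 0.21 and 0.50 (FDR 0.24 and 0.11).

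GNL3, nucleostemin, was at 135, 138, 135 and 141 CPM (log2 fold change 0.03, edgeR FDR 0.730). NIP7 was at 55.2, 54.6, 37.3 and 52.2 CPM, and 786-O-VHL replicate 1 alone was far from the rest (log2 fold change -0.18, edgeR FDR 0.0964, and -0.56, FDR 0.00127, without replicate 2). NOP2, an rRNA methyltransferase, had 11, 12, 3 and 12 counts, which gave 0.25 with an SE of 0.568, and the annotation has another gene over it on the same strand. With so few counts no change of NOP2 was detectable.

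Of 42 other tested genes of large subunit assembly, 19 fell and 4 rose. LYAR (-1.20), the helicase DDX54 (-1.15) and EBNA1BP2 (-1.03) fell the most, and RPF2 (0.73), RSL1D1 (0.61) and NOC3L (0.46) were higher. Of 22 genes of the RNA exosome and of RNase MRP, which trim and cut the precursor, 11 fell and 3 rose, with POP1 at -1.82 and EXOSC5 at 1.12.

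All lists of the pathway together counted 131 tested genes besides the 49, of which 60 (45.8%) fell and 14 (10.7%) rose, at a median of -0.17. The mRNAs of 73 cytosolic ribosomal proteins, a list that was added after values were seen, had a median of 0.05. Of them 12 (16.4%) were lower and 22 (30.1%) higher, against 31.9% and 32.6% of all tested genes. Their log2 fold changes ran from -0.48 to 0.46. MYC rose from 158 and 158 to 384 and 446 CPM (log2 fold change 1.41, SE 0.0682, edgeR FDR 1.77e-16), and of 9 tested genes of the MYC network 6 rose and 2 fell. Besides MYC and its partner MAX (0.64), the genes that rose were MXD1 (1.53), MXI1 (0.85), MGA (0.83) and MNT (0.47), whose products are known to oppose MYC at its sites, and MXD3 (-1.33) and MXD4 (-0.37) of the same kind fell. All 16 genes of an S phase list fell, at a median of -2.15, from -3.28 for GINS2 to -1.30. The S phase genes thus moved with the lower ribosome biogenesis genes, and their part in that result was not tested.

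**Figure D4:**
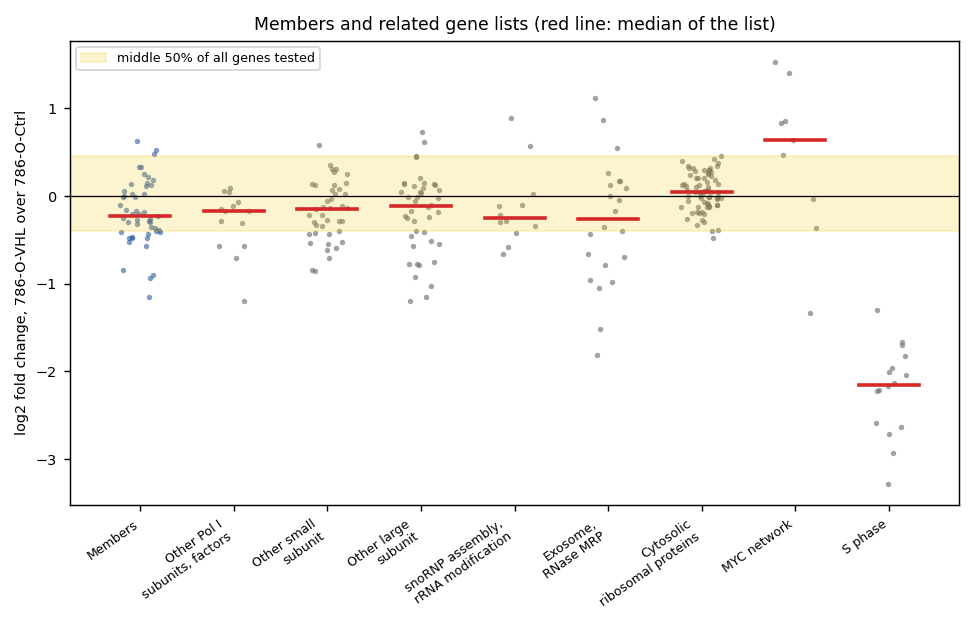
Log2 fold change of 786-O-VHL over 786-O-Ctrl, 1 point a gene, for the 49 genes described here (leftmost) and for related lists, with the median of each list in red and the middle 50% of all tested genes shaded (-0.40 to 0.46). The medians of the lists of ribosome biogenesis lie between -0.26 and -0.11, those of ribosomal proteins and the MYC network at 0.05 and 0.64, and that of S phase genes at -2.15.

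Levels can be set side by side between genes only per length, so CPM was divided by the length of the canonical transcript in kb, which was known for 48 of the tested genes. Of these, 41 were above the 50th percentile of all tested genes and 12 above the 90th, with a median percentile of 79.6. In 786-O-Ctrl NPM1 was the highest at 774 CPM per kb, before NCL at 271, NOP10 at 135 and NOP56 at 110. In 786-O-VHL the order was NPM1 at 555, NOP10 at 165, NCL at 151 and NOP56 at 95 CPM per kb, since NCL fell and NOP10 rose. Likewise UBTF was at 34.2 and TAF1D at 39.3 in 786-O-Ctrl, and at 18.9 against 60.2 CPM per kb in 786-O-VHL, and POLR1A and POLR1B changed places, from 9.75 and 5.96 to 6.74 and 8.16 CPM per kb. The change of places between POLR1A and POLR1B rests on their canonical lengths of 12480 and 7527 bases. In counts POLR1A stayed above POLR1B in every library. UTP15 (3.21 and 3.28) and PPAN (4.07 and 5.76) were low, and NOP2 (0.249 and 0.327) was the lowest. PPAN and NOP2 overlap another gene on the same strand, as said above, so their levels are uncertain.

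Many ribosome biogenesis genes carry snoRNA genes in their introns, and 10 of the tested genes did in the GRCh37 annotation, TAF1D with 8, NCL, NOP56, NOP58 and GNL3 with 3 each, DKC1, WDR43, PPAN and TSR1 with 2 each and POLR1C with 1. Of these 10 hosts, 5 were lower and 2 higher (TAF1D and PPAN), with a median log2 fold change of -0.07, and of the other 39 genes 24 were lower and 5 higher, with a median of -0.27. Strand was not known for the counting, and 28 of the 49 genes in that annotation overlap at least 1 gene on the other strand, whose reads then cannot be told apart from theirs. These include UBTF, TAF1D, POLR1B, PES1, WDR12, NOB1, LTV1, NOP58 and RRN3, which are named above for their levels or ratios.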

How the data were processed

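RNA-seq of 2 786-O-Ctrl and 2 786-O-VHL libraries was analysed. The authors deposited raw counts per gene, whole numbers without normalization. The submitters' processing notes list CASAVA, STAR and hg19, the study's methods give NovaSeq sequencing, alignment to hg19 and DESeq2 for differential expression, whereas the program that counted the reads, its strand setting and its gene models are not given in the sources used. The 786-O-Ctrl columns of the table share a replicate number and were used without one.

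The test was that of edgeR 4.0.16 under R 4.3.3 (filterByExpr with a minimum count of 10, TMM, quasi-likelihood F test, Benjamini-Hochberg adjustment over 12335 genes). The common dispersion was 0.00186, a biological coefficient of variation of 4.31%. The SE is that implied by the test. Exact Poisson intervals are at the 95% level. Coordinates, transcript lengths and overlapping genes came from a GRCh37 annotation in which 12749 identifiers were found, BOP1 not among them, and promoters from RefSeq on GRCh38.p14. Overlaps in the annotation used for the counting can differ.

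All genes of the set were named. Counts in every library were given for 8 genes set in advance, FBL excepted. They were also given for the genes that fell and rose the most in each role and for those called higher. Of other lists, at most 3 genes a direction with the largest change were set to be named, with MYC. BOP1, WDR12, BYSL, NIP7, the SL1 subunits, MAX, MGA and MNT were added with their values in view, as were others with values per library. The genes and lists were chosen with earlier results of these data known.

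The procedure was tested on simulated counts with the library totals of this comparison and 12335 genes. Only the genes named next were changed, as many up as down, and every gene had the common dispersion. In the data 31.9% of genes were called lower and 32.6% higher, so the numbers recovered need not hold there. Of 100 genes changed by 0.5 on the log2 scale edgeR recovered 74, and of 100 changed by 1 it recovered 93, with 7 false calls, whereas DESeq2 recovered 45 and 86, with 1 false call. Alternatives were DESeq2 1.42.0, limma-voom (limma 3.58.1), RLE factors, library totals alone, other filters on low counts, thinning of each library to 2807779 counts, each library left out in turn, an offset for GC content and exon length, and an FDR of 0.01.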

Additional observations from a re-analysis of the deposited data

How the results depend on the processing

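Of the 29 lower genes, 16 were called in every one of up to 12 alternatives, NCL, NPM1, BOP1, UBTF, POLR1A and MRTO4 among them. The other 13 (NOP14, NOP16, NOP56, NOP58, DKC1, NHP2, NOLC1, RRS1, LTV1, TSR1, HEATR1, DDX10 and POLR1E) missed the threshold in at least 1. The misses ran from 1 of 12 alternatives for DKC1, NOLC1 and POLR1E to 7 for NHP2 and RRS1. Of the 7 higher genes POLR1B and TAF1D were called in all 12, and NPM3, NOP10, WDR74, PPAN and NOB1 missed the threshold in at least 1. None of these genes changed sign. The cause was not tested. The 7 higher genes became 4 with DESeq2 and 14 with library totals alone, and between 2 and 10 when a library was left out (2 without 786-O-VHL replicate 2, 4 without the shallower 786-O-Ctrl library). The 29 lower genes became 17 with library totals alone and between 22 and 29 when a library was left out, and the share lower among called genes went from 80.6% to 54.8% with library totals alone. Of the other biogenesis genes, 32 in place of 14 were higher with library totals alone. The median of all genes moved to 0.15 there, and the shares of all tested genes called in the alternatives were not counted. The log2 ratio of the summed level, -0.35, was -0.22 with library totals alone, -0.23 without NPM1 and NCL, and between -0.38 and -0.32 when a library was left out. With the GC and length offset, the median log2 fold change of the genes lay 0.16 below that of all genes, in place of 0.25.

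Changes of sign were seen in 12 genes, none of them called with TMM factors and all libraries. Some of them were called in an alternative, such as WDR43 with library totals alone (0.25, edgeR FDR 0.00287). The range over leaving out each library ran from -0.052 to 0.66 for NOP2, -0.062 to 0.18 for GAR1, -0.025 to 0.049 for GNL3, -0.061 to 0.19 for WDR43, -0.36 to 0.26 for BYSL, -0.044 to 0.050 for UTP4, -0.050 to 0.10 for UTP15, -0.085 to 0.095 for DDX21, -0.051 to 0.20 for POLR1C and -0.12 to 0.13 for IMP4 (log2 fold changes). GAR1 was at -0.015 with limma-voom, -0.010 with RLE factors and -0.0046 without a filter, and BYSL at -0.012 with DESeq2. With library totals alone RRP1B was at 0.034, UTP4 at 0.12 and UTP15 at 0.12, with thinned libraries GNL3 at -0.00072 and UTP4 at 0.035, and with the GC and length offset WDR12 at -0.0020 and DDX21 at -0.13. No paired analysis was possible because both 786-O-Ctrl columns of the count table carry the same replicate number.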
